A study of Homo sapiens with 120 samples.

Results

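Unedited and knockout H1 cells were compared before any differentiation. H1 is a long-established line of human embryonic stem cells. The comparison holds 4 of the 120 libraries of the series, chosen by their titles: 2 of knockout cells (KO) and 2 of unedited cells (WT), each pair lettered a and b. All 4 were grown as stem cells in mTeSR Plus on Matrigel or Geltrex and collected at day 0, and polyadenylated RNA was made into stranded libraries. The study's constructs carry lncPRESS1, and KO is read here as its knockout. Which bases were removed, and in how many clones, is not given in the sources used here, and the edit and the clone cannot be told apart. A second edited line, ΔATG, has 2 libraries at day 0 (5.48% of tested genes were called there against the same WT libraries), and KO and WT cells were followed over 5 days of 3 differentiation protocols (BMP4, SMADi and Endo) in 20 libraries each. The letters are not stated to mark separate cultures, so every p-value below measures only the spread between libraries.

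LNCPRESS1 (lncPRESS1) is a long non-coding RNA of pluripotent cells that p53 represses and that has been described to bind the deacetylase SIRT6. Human embryonic stem cells hold the pluripotent state with the transcription factors POU5F1, SOX2 and NANOG, and they depend on FGF signalling through ERK and on Activin and Nodal signalling through SMAD2 and SMAD3. Both pathways switch on their own inhibitors, such as the phosphatase DUSP6 or the Nodal antagonists LEFTY1 and LEFTY2, and the RNA of those inhibitors is commonly read as a measure of pathway activity. C2H2 zinc finger genes, many of them named ZNF and clustered on chromosome 19, encode DNA-binding proteins, and those with a KRAB domain are known to repress transposable elements.

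The genes with the deepest loss in KO cells were a pair of neighbours on chromosome 19, ZNF667 and ZNF667-AS1, which are transcribed away from each other. Their start regions are shown because both were lost together. The start of ZNF354C on chromosome 5, a zinc finger gene that was also nearly absent, and that of CXCL11 on chromosome 4, the gene with the largest rise among those called under most settings, are shown beside them. Each window runs from 250 bases before to 50 after the start and is written 5′ to 3′ on the gene's own strand, with every CG pair, the site of DNA methylation, in capitals.
ZNF667 (chr19:56477296-56477595, minus strand): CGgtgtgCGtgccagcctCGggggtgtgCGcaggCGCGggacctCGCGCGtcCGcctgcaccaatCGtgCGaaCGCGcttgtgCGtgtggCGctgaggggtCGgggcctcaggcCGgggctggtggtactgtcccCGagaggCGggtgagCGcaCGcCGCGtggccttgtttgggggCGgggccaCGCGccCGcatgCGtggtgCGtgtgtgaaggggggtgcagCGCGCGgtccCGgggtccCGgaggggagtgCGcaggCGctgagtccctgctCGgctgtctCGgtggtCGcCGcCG
ZNF667-AS1 (chr19:56477624-56477923, plus strand, the first of 2 listed starts): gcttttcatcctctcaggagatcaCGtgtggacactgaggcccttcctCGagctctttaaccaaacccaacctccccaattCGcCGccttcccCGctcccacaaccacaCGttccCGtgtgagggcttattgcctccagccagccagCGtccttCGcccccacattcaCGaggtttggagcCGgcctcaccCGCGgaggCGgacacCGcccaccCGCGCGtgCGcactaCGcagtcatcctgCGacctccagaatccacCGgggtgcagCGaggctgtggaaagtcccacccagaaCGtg
ZNF354C (chr5:179060123-179060422, plus strand): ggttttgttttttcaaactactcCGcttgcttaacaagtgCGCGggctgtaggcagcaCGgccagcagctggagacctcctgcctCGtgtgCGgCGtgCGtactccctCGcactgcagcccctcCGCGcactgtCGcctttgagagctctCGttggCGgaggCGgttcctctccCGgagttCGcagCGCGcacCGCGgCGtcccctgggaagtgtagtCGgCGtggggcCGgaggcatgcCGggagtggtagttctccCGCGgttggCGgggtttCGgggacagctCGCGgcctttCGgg
CXCL11 (chr4:76036021-76036320, minus strand): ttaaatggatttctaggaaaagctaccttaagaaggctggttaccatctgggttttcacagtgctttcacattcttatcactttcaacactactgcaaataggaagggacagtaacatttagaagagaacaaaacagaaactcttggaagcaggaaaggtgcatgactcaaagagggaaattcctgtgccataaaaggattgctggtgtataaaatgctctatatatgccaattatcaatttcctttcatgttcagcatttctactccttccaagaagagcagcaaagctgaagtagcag
The sequences are RefSeq's on GRCh38.p14, whose table held a window for 70 of the 99 genes that are described below as called in 10 fits. CG reads the same on both strands. The ZNF667 window holds 42 CG pairs, a number that 5.85% of all 35116 windows reach, and the ZNF667-AS1 window holds 24, reached by 33.9%. The ZNF354C window holds 33, reached by 17.2%, and that of CXCL11 holds 0; the median window has 14. The 2 windows at ZNF667 lie 28 bases apart. The windows use RefSeq starts, while the gene bodies described below use GENCODE positions, in which the starts differ and the 2 genes overlap. Methylation was not measured, and the counts describe the sequence only.

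The 4 libraries held 43953182 (KO b) to 57128659 (WT a) estimated counts. Library KO b stood apart: on the first principal component of the 6 day 0 libraries, which held 50.3% of the variance, it lay at 40.33 and the other 5 between -28.48 and 10.83. Of all 48 groups of KO, WT and ΔATG cells, the KO day 0 pair had the widest spread between its libraries (SD of the log2 difference b minus a over genes 0.445, against a median of 0.310), and the WT day 0 pair ranked 7. The differences b minus a correlated across 14359 genes between WT and KO (0.367), between WT and ΔATG (0.383) and between KO and ΔATG (0.756), a description in which genes are not independent. For a number of genes and lists the difference KO minus WT is therefore also given within letter a and within letter b. Across the same genes the differences within the 2 letters correlated at 0.201.

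The cells carried the RNA of pluripotent stem cells, though 2 of 8 markers, NANOG and L1TD1, were called lower in KO. The 8 stem cell markers summed to 8724 and 8002 CPM (counts scaled to a common library size, with TMM) in WT a and b and to 8480 and 7370 in KO a and b. Markers of primitive streak (TBXT, MIXL1, EOMES, GSC) summed to 1.44 to 1.57 CPM, those of definitive endoderm (SOX17, FOXA2, CXCR4, GATA6) to 1.06 to 2.68 and those of neuroectoderm (PAX6, SOX1, HES5, LHX2) to 0.667 to 0.762. SOX17 was at 0 in both KO libraries and in WT a. The amnion and trophoblast markers summed to 15.7 and 17.2 CPM in WT and 19.8 and 27.1 in KO, nearly all of it the keratin gene KRT7, and CDX2, GATA3 and TFAP2A stayed under 0.34 CPM in every library. The fibroblast markers summed to 450.0 to 515.9 CPM, almost wholly COL1A1 and COL1A2, and LUM and DCN reached at most 0.0527 CPM. Those of neural crest (SOX10, PAX3, NGFR) summed to 26.45 to 35.16 CPM, nearly all of it NGFR and SOX10. Mesoderm markers summed to 3.48 to 5.60 CPM and those of endothelium and blood to 0.804 to 1.49. A lower sum in bulk RNA can come from fewer cells of a type or from less RNA per cell, and these cannot be told apart.

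LNCPRESS1 (ENSG00000232301, chr7:101299578-101301346, plus strand) was lower in KO cells but not absent. Its level was 21.4 CPM in WT a and 40.6 in WT b, and 13.2 in KO a and 5.605 in KO b. Both KO libraries lay below both WT libraries, and the gap was far wider within letter b (-2.85 on the log2 scale) than within letter a (-0.70). Over the 4 libraries LNCPRESS1 fell by 1.70 on the log2 scale (SE 0.220, adjusted p = 2.22e-07; WT 31.0 ± 13.5 and KO 9.39 ± 5.36 CPM, mean ± SD, n = 2). The SE and p rest on a spread pooled over 48 groups, not on the 4 libraries alone. Fits of the day 0 libraries alone did not call LNCPRESS1. The ΔATG libraries, compared with the same WT libraries, held 53.1 and 35.2 CPM. Where in the transcript the edit lies was not analysed here, so a count over the whole gene does not measure how complete the knockout is.

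Of the 9 other tested genes within 100 kb of LNCPRESS1, 2 were called, against 4.89% of all tested genes. In 32.2% of all tested genes, called or not, the groups did not overlap. CLDN15, which encodes a tight junction claudin and starts 60.8 kb away, was at 4.06 and 5.06 CPM in WT a and b and at 6.34 and 7.15 in KO, a rise of 0.56 (SE 0.174, adjusted p = 0.0462). COL26A1, a collagen gene 61.5 kb to the other side, was at 103.4 and 87.3 CPM in WT and at 78.6 and 70.2 in KO, and fell by 0.36 (SE 0.072, adjusted p = 0.00109). For both genes the groups did not overlap, and both calls were lost without WT a and without KO b, that of CLDN15 also with no filter on low counts and by voom. The nearest transcribed neighbour, EMSLR, 7.0 kb downstream, was at 51.5 and 57.1 CPM in WT and at 60.6 and 32.6 in KO: it was above WT within letter a (0.23) and below it within letter b (-0.81), and was not called (adjusted p = 0.431).

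Across all 25821 tested genes, 1263 were called at an adjusted p under 0.05, or 4.89%, of which 480 were higher in KO (1.86%) and 783 lower (3.03%). Of these, 1208 had both KO libraries on the same side of both WT libraries and the same sign within each letter; without any test, 32.2% of all tested genes had groups that do not overlap. Opposite signs within the 2 letters were seen in 25 of the 1263 and in 43.2% of all tested genes. The calls were chosen on the same libraries, which favours equal signs, so this is a description. The number of calls turned on how the spread was estimated and on single libraries. With a block for the letter it was 3188 (1072 higher and 2116 lower, the background for block counts of lists below). It was 274 without WT a, 272 without KO b, 1934 without WT b and 3262 without KO a. Fits of the day 0 libraries alone, which have few degrees of freedom, called 4 genes (6 libraries), 12 (6 libraries with the block) and 3 (the 4 libraries compared), and voom with a weight per library, added after the data were seen, called 77. An exact permutation test of 2 libraries against 2 cannot go below p = 0.333.

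**Figure D1:**
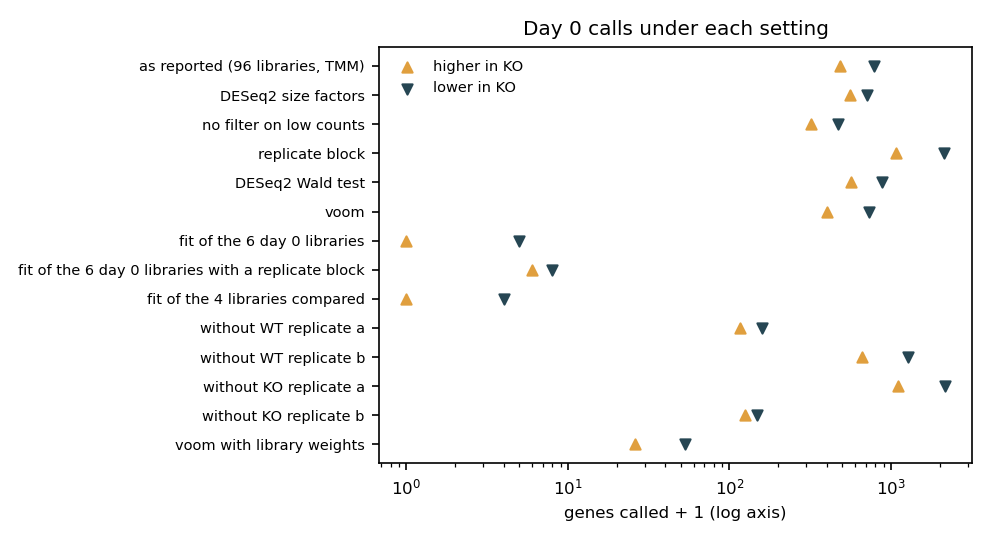
Number of genes called at day 0 (x axis, genes plus 1, log axis) under each setting (y axis), with genes higher in KO as upward and genes lower in KO as downward triangles. The fits that pool the spread over groups lie between 272 and 3262 calls in all, the fit with library weights at 77, and the fits of day 0 libraries alone at 12 or fewer.

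A smaller set of genes was called in the same direction in 10 fits that pool the spread over 48 groups: the one above, those with other size factors, no filter on low counts, the letter block, DESeq2 and voom, and those without each of the 4 libraries. It holds 99 genes (0.383% of those tested), 39 higher and 60 lower in KO. All had the same sign within both letters, which the way they were chosen favours. Of the 99 genes only 12 were called in the 6-library fit with the block, which were all of its calls. The weighted fit called 57 of the 99, among its 77 calls. The 10 fits reuse the same day 0 libraries and the spread pooled over 48 groups. The KO day 0 pair had the widest spread of these groups, so SE and p may be too small at day 0. The following paragraphs describe the 99 genes first, since their calls do not hang on 1 library.

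Zinc finger genes, with the lncRNA gene ZNF667-AS1, made the deepest losses. ZNF667 was at 13.0 and 10.1 CPM in WT a and b and had no count in either KO library, so it was at least 418-fold lower (against a floor of 3 counts over both KO libraries; the adjusted p was 1.08e-27). ZNF667-AS1, whose gene body overlaps that of ZNF667 by 816 bases on the other strand, was at 11.8 and 10.1 CPM in WT and without a count in KO, at least 395-fold lower (adjusted p = 3.1e-22). Both genes kept their level in ΔATG cells, at 10.9 and 9.92 CPM for ZNF667 and 9.83 and 11.3 for ZNF667-AS1. Whether the authors' counting used strand is not given in the sources used here, but most of each gene body lies outside the overlap.

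ZNF585A, elsewhere on chromosome 19, was at 5.10 and 5.06 CPM in WT and without a count in KO, at least 183-fold lower (adjusted p = 3.56e-15). ZNF354C on chromosome 5 was at 4.64 and 4.39 CPM in WT and 0.235 and 0.144 in KO, and fell by 4.52 (SE 0.304, adjusted p = 2.91e-17). ZNF229 was at 4.66 and 4.53 CPM in WT and 0.805 and 0.515 in KO, and fell by 2.77 (SE 0.241, adjusted p = 1.4e-12). In each of these genes the WT libraries lay close together and both KO libraries far below them.

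ZNF431 was reduced rather than lost: it was at 43.4 and 50.1 CPM in WT and 22.4 and 23.6 in KO, and fell by 1.02 (SE 0.120, adjusted p = 1.92e-08). ZNF835 and ZNF454, both under 3 CPM in WT, fell by 4.78 and 2.91. In all, 8 genes named ZNF were among the 99, counting the lncRNA gene ZNF667-AS1, which overlaps ZNF667. All 8 were lower in KO at day 0 and on each of the 15 later protocol-days as well. This grouping was made after the values were seen. Of 575 tested genes with such names 19 were called lower (3.3%) and 9 higher (1.57%), close to the shares over all genes, and their median difference was -0.01.

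A lncRNA gene, GPRC5D-AS1 on chromosome 12, was lost in the same way: it was at 2.07 and 1.81 CPM in WT and without a count in KO, at least 69.9-fold lower (adjusted p = 5.72e-10). ENSG00000286456, for which the files give no symbol, was at 10.8 and 10.3 CPM in WT and 0.0839 and 0.0206 in KO, and fell by 7.51 (SE 0.294, adjusted p = 2.45e-31). It was at 13.2 and 16.6 CPM in ΔATG cells.

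**Figure D2:**
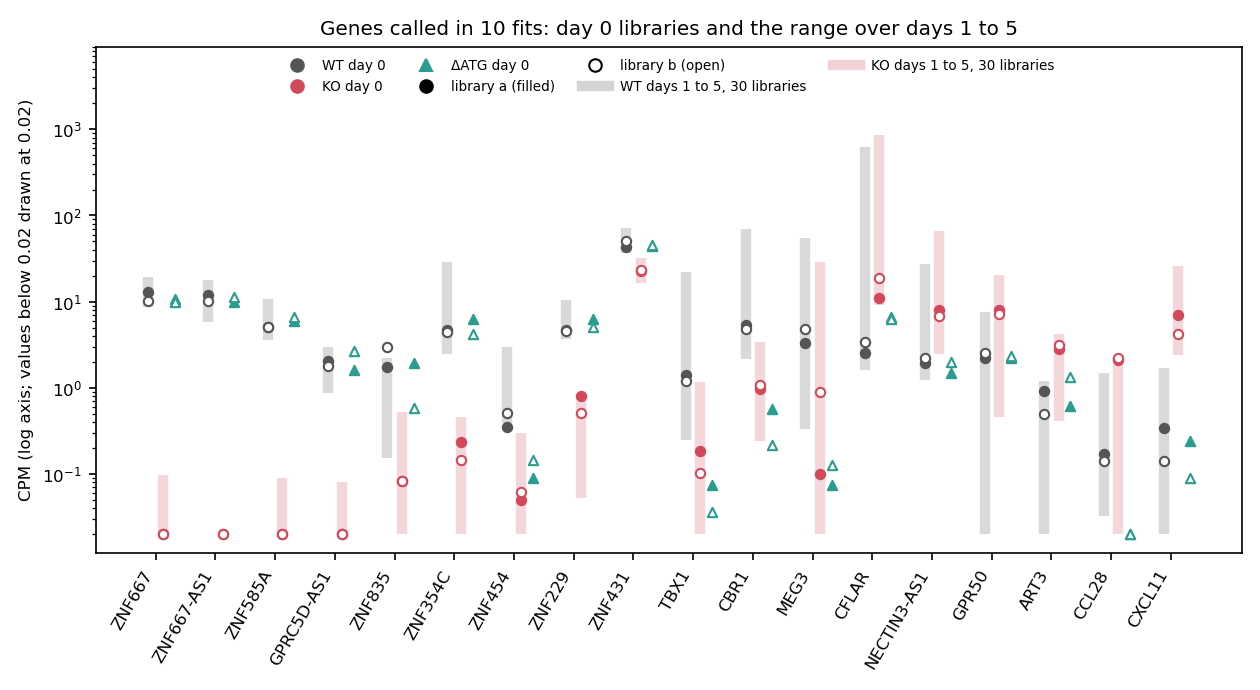
CPM (y axis, log axis, values under 0.02 drawn at 0.02) of 18 genes called in 10 fits, at day 0 in WT (grey), KO (red) and ΔATG (green triangles), with library a filled and library b open, and the range over 30 WT and 30 KO libraries of days 1 to 5 as bars. ZNF667 to ZNF431 are low in KO, and of these only ZNF835 overlaps with WT later. ZNF454, TBX1, CBR1 and MEG3 are low in both edited lines at day 0. CXCL11 is high in KO at all times.

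Other genes were low in both edited lines. So was ZNF454, at 0.356 and 0.509 CPM in WT and 0.0904 and 0.146 in ΔATG (ΔATG minus WT -1.88, adjusted p = 0.0101, edgeR). CBR1, a carbonyl reductase gene on chromosome 21, was at 5.42 and 4.86 CPM in WT and 0.973 and 1.09 in KO, and fell by 2.32 (SE 0.236, adjusted p = 3.1e-10); in ΔATG cells it was at 0.573 and 0.219. TBX1, a T-box factor of pharyngeal development, was at 1.41 and 1.21 CPM in WT and 0.184 and 0.103 in KO, and fell by 3.13 (SE 0.364, adjusted p = 9.69e-09), with 0.0754 and 0.0365 in ΔATG. MEG3, a maternally expressed imprinted lncRNA whose silencing is well known in cultured stem cells, was at 3.28 and 4.76 CPM in WT and 0.101 and 0.907 in KO, and fell by 3.10 (SE 0.425, adjusted p = 1.16e-06). ΔATG held 0.0754 and 0.128 CPM of MEG3. Both edited lines are compared with the same WT libraries, so values shared between them are given side by side only. MEG3 was the 1 called gene of 22 tested imprinted genes (4.55% lower, against 3.03% of all tested genes). With the letter block 1 was higher and 3 were lower, against 1072 and 2116 of all 25821 tested genes.

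Among genes that rose, CXCL11, a chemokine gene that interferon induces, had the largest log2 change of the 99. It was at 0.339 and 0.141 CPM in WT and 7.01 and 4.25 in KO, a rise of 4.55 (SE 0.303, adjusted p = 2.91e-17). ART3, an ADP-ribosyltransferase gene on the other strand whose body holds the whole of CXCL11, was at 0.931 and 0.492 CPM in WT and 2.80 and 3.17 in KO, a rise of 2.05 (SE 0.342, adjusted p = 6.3e-05); reads of nested genes can be hard to assign. CCL28, a mucosal chemokine gene on chromosome 5, was at 0.169 and 0.141 CPM in WT and 2.13 and 2.21 in KO, a rise of 3.78 (SE 0.344, adjusted p = 1.4e-12).

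Interferon-response genes as a list did not rise with CXCL11. Of 20 tested genes of interferon response and antigen presentation 1 was called higher and 1 lower, with a median of 0.06. Each is 5% of the list, against 1.86% higher and 3.03% lower over all tested genes. MX1, an antiviral GTPase gene, was at 5.86 and 7.97 CPM in WT and 11.9 and 14.7 in KO, a rise of 0.94 (SE 0.148, adjusted p = 2.15e-05). IFIT3, another antiviral gene, was at 0.796 and 0.773 CPM in WT and 0.352 and 0.165 in KO, and fell by 1.54 (SE 0.395, adjusted p = 0.0109), a call that was lost without WT a and without KO b.

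Cell death genes gave one of the clearest rises. CFLAR encodes c-FLIP, the inhibitor of caspase-8 at death receptors. It was at 2.54 and 3.39 CPM in WT and 11.1 and 18.9 in KO, a rise of 2.33 (SE 0.215, adjusted p = 1.1e-11) that was 2.12 within letter a and 2.46 within letter b. In ΔATG cells it was at 6.63 and 6.27 CPM. Of the 16 genes of the death receptor list CFLAR alone was called higher, and 2 were called lower: RIPK1, a kinase of that pathway, by 0.50 (adjusted p = 0.00132) and FADD, its adaptor, by 0.36 (adjusted p = 0.00284). In the BCL2 family, 2 of 15 tested genes were called, both higher: BCL2L10 by 2.09 (adjusted p = 0.000107), from 0.254 and 0.281 CPM in WT to 1.43 and 0.804 in KO, and the survival gene BCL2L1 by 0.31 (adjusted p = 0.00185). Over all tested genes 1.86% were called higher and 3.03% lower. The death receptor list had 6.25% higher and 12.5% lower, and the BCL2 family 13.3% higher. With the letter block the death receptor list had 1 higher and 4 lower genes and the BCL2 family 5 higher and 1 lower. Of all 25821 tested genes 1072 were higher and 2116 lower with the block. The calls of FADD and BCL2L1 were lost without WT a and without KO b, and that of RIPK1 without KO b.

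The 24 genes named by rank, those with the largest smaller difference of the 2 letters, included 12 higher and 12 lower in KO. Besides CFLAR the higher ones were NECTIN3-AS1, GPR50, FRY, DNAJA4, CPNE5, KIF19, FMO4, PRRG3, FAM228B, MYCBPAP and ENSG00000289456. DNAJA4, a DnaJ co-chaperone gene, was at 5.20 and 7.20 CPM in WT and 18.5 and 17.6 in KO, a rise of 1.54 (SE 0.134, adjusted p = 1.4e-12). NECTIN3-AS1, a lncRNA gene on chromosome 3, was at 1.95 and 2.21 CPM in WT and 7.98 and 6.84 in KO, a rise of 1.84 (SE 0.222, adjusted p = 4.84e-08). GPR50, an orphan receptor gene related to the melatonin receptors, was at 2.24 and 2.56 CPM in WT and 7.95 and 7.25 in KO, a rise of 1.67 (SE 0.173, adjusted p = 5.36e-10). FMO4 rose by 1.43, PRRG3 by 1.33 and KIF19 by 1.45.

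The 12 lower genes included CBR1, ZIC1, IRX1, GPR37, AJAP1, ZNF562, OR52A1, PTPRB, ENSG00000289262, SMAD7 and ZBTB40. ZBTB40, a zinc finger gene, was at 44.3 and 34.3 CPM in WT and 20.2 and 15.7 in KO; it fell by 1.12 (SE 0.095, adjusted p = 6.99e-13), by nearly the same amount within letter a (-1.13) and letter b (-1.13). GPR37, an orphan receptor gene, was at 23.0 and 13.4 CPM in WT and 8.08 and 3.83 in KO, and fell by 1.59 (SE 0.194, adjusted p = 6.51e-08). ZIC1, a neural transcription factor gene, was at 4.52 and 4.02 CPM in WT and 1.39 and 0.721 in KO, and fell by 1.97 (SE 0.479, adjusted p = 0.00705). Of the higher and lower genes listed, ZIC1, AJAP1, ZNF562, PTPRB, SMAD7, FRY, FAM228B and MYCBPAP were not called in all 10 fits. ZNF562 was called in 5 of the 10 and PTPRB in 7, and both also went uncalled in fits that keep all libraries. All 8 lost the call without KO b, all but ZNF562 without WT a, ZNF562 and FRY without WT b, and ZNF562 also without KO a.

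The acyl-CoA thioesterase genes ACOT1, ACOT2 and ACOT4, which lie together on chromosome 14, all rose. ACOT2, the mitochondrial enzyme, was at 7.64 and 9.08 CPM in WT and 15.9 and 15.0 in KO, a rise of 0.89 (SE 0.132, adjusted p = 6.25e-06). ACOT1, its cytosolic near-copy 23825 bases away, rose by 1.09 (SE 0.184, adjusted p = 9.21e-05) and ACOT4 by 1.25 (SE 0.242, adjusted p = 0.00068). ACOT1 and ACOT2 are similar in sequence, so reads may be split between them. All 3 were called in all 10 fits; the grouping was made after the values were seen.

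The core pluripotency factors stayed near WT except NANOG. POU5F1 was at 1870 and 1815 CPM in WT and 1790 and 1896 in KO, with a difference of 0.00 (SE 0.082, adjusted p = 1.0). SOX2 was at 376.6 and 324.1 CPM in WT and 349.0 and 298.2 in KO, with a difference of -0.11 (SE 0.101, adjusted p = 0.62). NANOG was at 71.3 and 84.8 CPM in WT, 60.8 in KO a and 16.6 in KO b. It fell by 1.00 (SE 0.273, adjusted p = 0.019), but the difference was -0.23 within letter a and -2.35 within letter b, and the call was lost without KO b and also without either WT library.

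Of 40 tested genes of the wider pluripotency network 10 were called lower (25%), with a median of -0.16. Over all tested genes 3.03% were lower and the median was -0.001. Among genes averaging 1 or more in log2 CPM these values were 4.86% and -0.048. With the letter block 14 were lower and 1 higher; without KO b no gene of the list was called, and without WT a 1 was. NR5A2, a nuclear receptor gene, was at 11.6 and 9.69 CPM in WT and 7.31 and 3.42 in KO, and fell by 0.96 (SE 0.224, adjusted p = 0.00514). PRDM14, a repressor of differentiation genes, was at 40.3 and 25.9 CPM in WT and 23.3 and 14.1 in KO, and fell by 0.82 (SE 0.227, adjusted p = 0.0215). DPPA3, ETV4, GDF3, L1TD1, FOXD3, JADE1, UTF1 and SFRP2 were the other called members, with falls of 0.37 to 0.81.

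FGF and ERK signalling genes included many lower calls. Of 32 tested genes 10 were called lower (31.2%) and 1 higher. The lower share was 3.03% over all genes and 4.86% over those averaging 1 or more in log2 CPM. The median of the list was -0.30, with -0.08 within letter a and -0.57 within letter b. By role, 2 of 6 receptor genes were lower (FGFR3 and FGFR4), and of 19 targets and feedback inhibitors 8 were lower and 1 higher. DUSP6, the phosphatase that switches off ERK, was at 49.96 and 44.95 CPM in WT and 29.5 and 8.76 in KO, and fell by 1.29 (SE 0.298, adjusted p = 0.00457). DUSP5, a nuclear ERK phosphatase gene, was at 25.8 and 20.2 CPM in WT and 15.3 and 6.04 in KO, and fell by 1.09 (SE 0.214, adjusted p = 0.000832). In both genes KO b was far below KO a, and KO a was below both WT libraries.

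SPRY1, a feedback inhibitor, was at 22.9 and 16.6 CPM in WT and 15.0 and 10.6 in KO, and fell by 0.62 (SE 0.149, adjusted p = 0.00627), evenly within letters a (-0.61) and b (-0.65). SPRY4 fell by 0.65 over all libraries (adjusted p = 0.0167) but was above WT within letter a (0.10) and below it within letter b (-1.59). PHLDA1, the 1 gene of the list that rose, was at 150.8 and 100.1 CPM in WT and 196.2 and 200.8 in KO, a rise of 0.66 (SE 0.170, adjusted p = 0.0117). Without KO b no gene of the list was called, and without WT a 3 were lower and 1 higher, with PHLDA1 as the higher one; without WT b neither PHLDA1 nor SPRY4 was called. The ΔATG libraries of DUSP6 differed as much with the letter, at 73.5 CPM in a and 21.5 in b.

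Nodal and Activin genes gave 5 lower calls of 26 tested (19.2%, against 3.03% of all genes), with a median of -0.19. The called genes were 2 ligands, NODAL and GDF3, and 3 inhibitors, LEFTY1, LEFTY2 and SMAD7. LEFTY1 was at 2.05 and 2.27 CPM in WT and 0.922 and 0.206 in KO, and fell by 1.85 (SE 0.360, adjusted p = 0.000608). SMAD7, the inhibitory SMAD, was at 9.18 and 6.46 CPM in WT and 4.36 and 2.31 in KO, and fell by 1.20 (SE 0.225, adjusted p = 0.000421), by more than 1 on the log2 scale within each letter. LEFTY2 fell by 0.83, NODAL by 0.86 and GDF3 by 0.57. LEFTY1 and LEFTY2 are close copies 25215 bases apart, so their reads may be split. With the letter block 8 genes were lower and 1 higher. Without KO a 9 were lower, without WT a 1, and without KO b none was called.

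**Figure D3:**
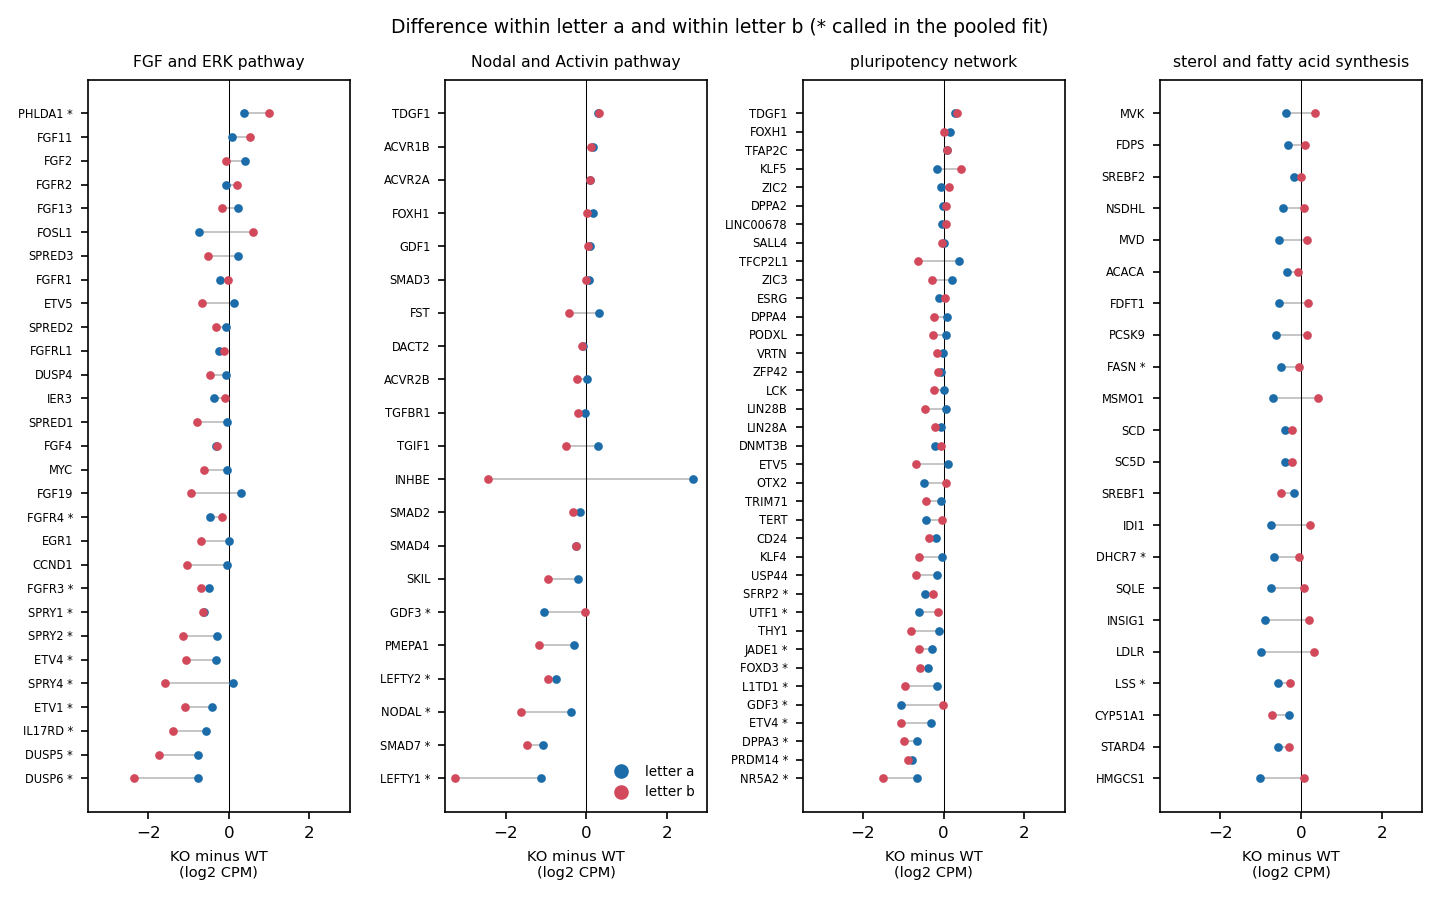
Difference KO minus WT in log2 CPM (x axis) within letter a (blue) and within letter b (red) for list members (y axis) that were called or averaged 1 or more in log2 CPM; an asterisk marks called genes. DUSP6, DUSP5 and SMAD7 lie left of 0 in both letters with letter b further left, and 12 of the sterol genes lie left of 0 in letter a only.

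Sterol and fatty acid genes showed the reverse dependence on the letter. Of 24 tested genes 5 were called lower (20.8%, against 3.03% of all genes). All 24 lay below 0 over the 4 libraries (median -0.34), as did 8505 of the 14349 genes averaging 1 or more in log2 CPM. Within letter a all 24 were below 0 (median -0.55), and within letter b 12 of 24 were (median 0.03). LSS, which closes the sterol ring, was at 138.6 CPM in WT a, 103.5 in WT b, 93.4 in KO a and 85.8 in KO b, and fell by 0.43 (SE 0.095, adjusted p = 0.00281). FASN, the fatty acid synthase gene, was at 1270 CPM in WT a, 929.2 in WT b, 893.3 in KO a and 891.7 in KO b, and fell by 0.30 (SE 0.080, adjusted p = 0.0151), by 0.51 within letter a and by 0.06 within letter b. Both calls were lost without WT a and without KO b. By level WT a is the library that stands out: the list summed to 6187 CPM there, 4325 in WT b, 4390 in KO a and 3973 in KO b. Most calls of the list were lost without WT a, and likewise without KO b. With the letter block 12 genes were called lower.

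The integrated stress response, which stalled translation and lack of amino acids start through the factor ATF4, differed between KO and WT in opposite directions in the 2 letters. Of 21 tested genes, 19 were higher in KO within letter a and lower within letter b, against 19.3% of all tested genes; opposite signs of either kind were seen in 43.2%. The median difference was 0.90 within letter a and -0.95 within letter b, and -0.03 over the 4 libraries. DDIT3, which encodes the stress factor CHOP, was at 2.61 CPM in WT a, 23.3 in WT b, 13.9 in KO a and 5.89 in KO b. CHAC1, a glutathione-degrading enzyme gene that ATF4 induces, was at 26.3, 171.1, 111.9 and 49.7 CPM in the same order. All 21 genes were higher in WT b than in WT a, and 20 were higher in KO a than in KO b.

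No gene of the stress list was called by edgeR, DESeq2 or voom, and 1 had an unadjusted p under 0.05. Without WT b 6 were called higher in KO, and without KO a 8 were called lower. ATF4 itself, which is regulated mainly through translation, was at 474.4 and 508.1 CPM in WT and 420.3 and 443.1 in KO, with a difference of -0.19 (adjusted p = 0.431) and the same sign in both letters. VLDLR was the other gene whose letters did not oppose. In ΔATG cells CHAC1 was at 166.8 and 163.2 CPM and DDIT3 at 24.7 in both, near WT b.

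**Figure D4:**
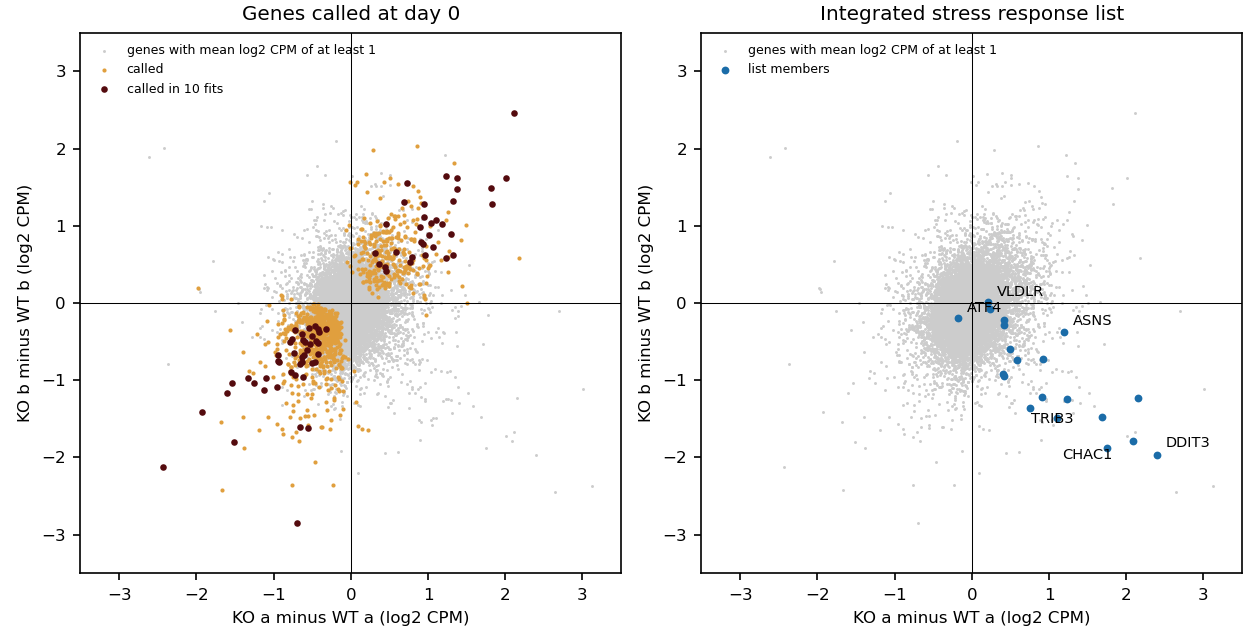
Difference KO minus WT in log2 CPM within letter a (x axis) against letter b (y axis) for genes averaging 1 or more in log2 CPM (grey; axes end at 3.5, so a few genes lie outside). Left: called genes (orange) and those called in 10 fits (dark), which lie in the lower left and upper right. Right: the 21 genes of the stress response list, of which 19 lie in the lower right.

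The later libraries of the same lines, which share no library with day 0, show how many day 0 differences recurred. Of the 1263 day 0 calls, 486 (38.5%) were called in the same direction over days 1 to 5 of BMP4 and 174 in the opposite one; 28.7% of all tested genes were called there. In SMADi, where 45.6% of genes were called, 505 recurred and 369 were reversed. By direction, of the 480 higher calls 123 recurred there and 176 were reversed. Of the 783 lower calls 382 recurred and 193 were reversed. In Endo, where 14.8% were called, 304 recurred and 98 were reversed. Of all tested genes, called at day 0 or not, 17.0%, 21.5% and 8.92% were called later with the sign of their day 0 difference in the 3 protocols. With the opposite sign it was 11.7%, 24.1% and 5.87%, against 13.8%, 29.2% and 7.76% of the day 0 calls. In SMADi 36.7% of the higher and 24.6% of the lower calls were reversed.

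In all 3 protocols 103 genes were called in the direction of day 0, 24 higher and 79 lower, and 62 of them had that sign on each of the 15 protocol-days. These had larger day 0 changes than called genes in general: their median size was 1.00 on the log2 scale, against 0.54 for all calls. ZNF667-AS1 had no count in any of the 30 later KO libraries, while the 30 WT libraries held 5.82 to 18.0 CPM. ZNF585A stayed at or under 0.0907 CPM in KO and between 3.56 and 10.8 in WT. CXCL11 was at 2.43 to 26.0 CPM in later KO libraries and at most 1.69 in WT. Within the 3 protocols the WT and KO libraries of these 3 genes never overlapped.

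Day 0 differed from the mean of the 15 later protocol-days at an adjusted p under 0.05 in 8.01% of all tested genes, CFLAR and ZBTB40 among them. CFLAR was 2.40 higher in KO on day 1 of BMP4, 0.34 higher on day 4 and 1.49 lower on day 5; its mean difference was -0.21 in SMADi and 0.31 in Endo. ZBTB40 differed by -0.27, 0.31 and 0.00 over the 3 protocols. CCL28 was higher in KO in BMP4 (3.40) but lower in SMADi (-2.14). LNCPRESS1 was below WT by 1.27 in BMP4 and by 3.47 in SMADi. In Endo it was not called (-0.45, SE 0.906, adjusted p = 0.891), with KO above WT by 0.41, 0.12 and 0.55 on days 1 to 3.

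**Figure D5:**
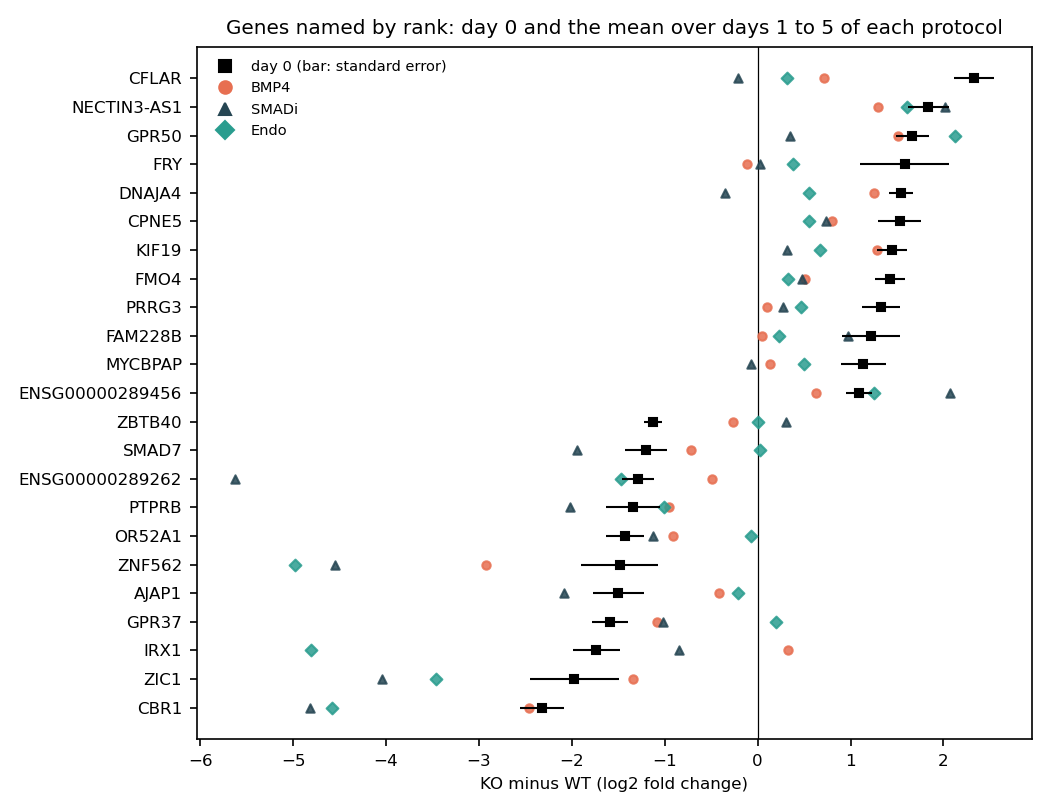
Log2 fold change KO minus WT (x axis) of the genes named by rank (y axis) at day 0 (black squares, bars are standard errors) and as the mean over days 1 to 5 of BMP4 (circles), SMADi (triangles) and Endo (diamonds). CBR1, ZIC1 and ZNF562 lie left of 0 throughout, while CFLAR, FRY and ZBTB40 lie near 0 in SMADi and Endo.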

How the data were processed

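Polyadenylated RNA was sequenced in 4 libraries compared here and in 92 further libraries of the same arm that share the estimate of spread. The authors deposited expected counts, which are estimates with decimals that the file calls length scaled, for 62703 genes; per the labels the build is GRCh38, and no aligner, quantifier or annotation was named (not given in the sources used here). Positions come from GENCODE 29, which held 58279 of the identifiers. Counts were rounded and fitted with edgeR 4.0.16 under R 4.3.3 (for alternatives DESeq2 1.42.0 and limma 3.58.1; Python 3.11.15, pandas 2.3.3 and matplotlib 3.10.9 for tables and figures): filterByExpr, TMM scaling, 1 mean per group for 48 groups (48 residual degrees of freedom, 32 with a separate letter term for each protocol-day) and the two-sided quasi-likelihood F test with Benjamini-Hochberg adjustment over all tested genes. The SE is the log2 change divided by the square root of F, a change is KO minus WT in log2, and values within a letter are differences of log2 CPM with a prior count of 2. Depth was 43953182 to 57128659 counts per day 0 library. Libraries were matched by title and description, and no column of another series was used. Same-letter libraries at day 0 deviate together in all 3 pairs of groups, which pairs them by the values; the labels name no shared batch.

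The genes named are LNCPRESS1 and its tested neighbours within 100 kb, POU5F1, SOX2 and NANOG, the 12 higher and 12 lower calls averaging 1 or more in log2 CPM whose smaller difference within a letter is largest, in each of 36 lists the called members with the 2 largest rises and 2 largest falls, and other members by their values. The members and lists were chosen with earlier results of these data known. Genes described as called in 10 fits were picked after their values were seen. The fit was tested on simulated counts with known changes. A few genes that the rules pick are not reported here.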

Additional observations from a re-analysis of the deposited data

Results flagged for a closer look

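For LNCPRESS1, the 24 genes named by rank and the 12 genes called in the 6-library fit with the letter block, 33 genes in all, the day 0 difference was tested against the mean KO minus WT difference over the 15 later protocol-days. The 2 differed for 14 genes (adjusted p under 0.05, edgeR; 8.01% of all tested genes did). Genes chosen for a large day 0 difference are more likely to exceed their later one, so the share is a description.

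Day 0 was higher than the later mean for CFLAR by 2.06 (adjusted p = 1.49e-09), DNAJA4 by 1.06 (2.15e-07), PRRG3 by 1.05 (0.000474), FMO4 by 0.99 (7.53e-05), MYCBPAP by 0.95 (0.0101), CPNE5 by 0.83 (0.0469) and KIF19 by 0.69 (0.00978), all genes that rose at day 0. ZBTB40 (-1.14, adjusted p = 2.49e-12) and GPR37 (-0.95, 0.00103) were lower at day 0 than later.

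The other 5 fell at day 0 and lay further below WT in the mean over the later days. Day 0 exceeded that mean for ZNF562 by 2.67 (adjusted p = 0.00022), CBR1 by 1.63 (8.07e-05), ZNF354C by 1.62 (0.0497), ZNF229 by 1.38 (0.0025) and ENSG00000289262 by 1.24 (6.76e-05). In BMP4 alone ENSG00000289262 lay nearer WT (-0.49) than at day 0 (-1.29), and CBR1 was at -2.46 against -2.32 at day 0. LNCPRESS1 was not among the 14 (difference 0.03, adjusted p = 1.0).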

How the results depend on the processing

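The values are given as all calls, then higher, lower, non-overlapping, and those called again in BMP4, SMADi and Endo, against 1263, 480, 783, 1208, 486, 505 and 304. With the replicate block they were 3188, 1072, 2116, 2200, 1233, 1048 and 776. With no filter on low counts, 790 calls, 470 lower, 762 non-overlapping and 301 and 176 recurring in SMADi and Endo. Voom with library weights, added after the data were seen, gave 77, 25, 52, 77, 48, 48 and 41. The day 0 fits gave for all, higher, lower and non-overlapping 4, 0, 4 and 4 (6 libraries; 1214 genes at an unadjusted p under 0.05), 12, 5, 7 and 12 (6 libraries with the replicate block) and 3, 0, 3 and 3 (4 libraries; 960 genes); they cannot give later recurrence. Leaving out 1 library gave 272 to 3262, 116 to 1099, 148 to 2163, 234 to 1733, 131 to 981, 130 to 892 and 90 to 547; the lone library left is assumed to vary like other groups. DESeq2 size factors, the DESeq2 Wald test and voom kept these counts within 1.5 times.

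LNCPRESS1 stayed called except in the day 0 fits, at -1.71 (adjusted p = 0.859, 6 libraries), -1.75 (0.19, with the replicate block) and -1.71 (0.976, 4 libraries). Of the other named genes, 6 stress or Activin genes, uncalled with all libraries, changed sign and were called when 1 library was left out: DDIT3 (-1.21 to 1.95), CHAC1 (-1.08 to 1.62), INHBE (-1.62 to 1.95) and ATF3 (-0.69 to 0.83), highest without WT b, and SLC7A11 (-1.36 to 1.03) and TRIB3 (-0.94 to 1.08), lowest without KO a; the cause was not tested. The 10 lower pluripotency genes were 6 with no filter or DESeq2, and the 5 of the Nodal list were 3 by voom.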

Other observations

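In the heat shock list 3 of 12 tested genes rose (25%, against 1.86% of all genes): HSPA1A, HSPA1B and DNAJB1. HSPA1B was at 72.2 CPM in WT a, 33.1 in WT b, 83.2 in KO a and 105.3 in KO b, so its rise of 0.84 (SE 0.162, adjusted p = 0.000632) was 0.20 within letter a and 1.67 within letter b, and the calls of all 3 were lost without WT b and without KO b; without WT b 4 genes of the list were called lower. HSPA1A and HSPA1B are near-identical, so reads may be split between them. With the letter block 3 genes of the heat shock list were higher and 3 lower. Called higher were 14.3% of the metallothionein genes, against 1.86% of all tested genes. Of 7 metallothionein genes, which bind zinc and copper, 1 was called (MT1F, higher by 0.75, adjusted p = 0.00841), 5 with the letter block and by voom, 6 without WT b and none without WT a or without KO b, and all 7 lay above 0, with a median of 1.26 within letter a and 0.01 within letter b.

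Of 30 tested neuroectoderm genes 5 were called lower (16.7%, against 3.03% of all genes) and 1 higher. Below 0 lay 23 within letter a and 15 within letter b, and the medians were -0.38 and -0.01. SIX3, a forebrain factor, was at 0.423 and 0.457 CPM in WT and 0.0335 and 0.0206 in KO, and fell by 3.88 (SE 1.038, adjusted p = 0.0163, 0.116 with the letter block). POU3F2, a neural factor, fell by 2.26 (adjusted p = 0.00306) from 1.07 and 0.439 CPM to 0.218 and 0.0824. NPTX1, a neuronal pentraxin gene, was at 608.7 and 451.0 CPM in WT and 813.8 and 862.0 in KO, and rose by 0.66 (SE 0.193, adjusted p = 0.0306). Among immediate early genes, NR4A2 fell by 1.79 (adjusted p = 0.00115) and ARC by 1.20 (adjusted p = 0.000238), and DUSP1 rose by 0.50 (adjusted p = 0.0159). They were the 3 called of 23, with 8.7% lower and 4.35% higher, against 3.03% and 1.86% of all tested genes. The calls of NR4A2, SIX3 and POU3F2 were lost without WT a and without KO b, that of SIX3 also without KO a, that of NPTX1 without WT b and without KO b, that of ARC without KO b, and that of DUSP1 without WT a and without KO a.

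Of 14 tested neural crest genes 4 were called lower (28.6%, against 3.03% of all genes) and 1 higher. The median was -0.24 within letter a and -0.18 within letter b. ETS1, a transcription factor gene, was at 48.4 and 33.8 CPM in WT and 32.8 and 19.3 in KO, and fell by 0.65 (SE 0.172, adjusted p = 0.0150); SOX9 rose by 0.43 (adjusted p = 0.0275). Without KO b no gene of the list was called, without WT a 1 was higher, and with no filter or by DESeq2 2 were lower. Of 11 tested YAP targets 3 were called lower (27.3%), among them CCN1, a matrix protein gene, by 0.50 (adjusted p = 0.0287); without WT a and without KO b none was, and with no filter 1 was. Of 8 markers of naive and 8-cell-like cells 2 were called lower (25%) and all 8 lay below 0 in both letters; no call was made by DESeq2, by voom, with no filter, without WT a or without KO b. In the amnion and trophoblast list 2 of 21 tested genes rose and 2 fell (9.52% each, against 1.86% and 3.03% of all tested genes). The keratin gene KRT18 was at 369.0 and 371.1 CPM in WT and 304.9 and 243.5 in KO. It fell by 0.43 (SE 0.089, adjusted p = 0.00137), and KRT7 rose by 0.53 (adjusted p = 0.0187). Without KO b none of the 4 was called, and without WT a 1 was lower.

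By edgeR 0 genes were called among 37 cell cycle genes (9 at an unadjusted p under 0.05; 1 by DESeq2, 0 by voom, 7 with the letter block), 17 primitive streak genes (4 unadjusted; 3 by DESeq2, 0 by voom, 2 with the block) or 7 sirtuin genes (3 unadjusted; 0 by DESeq2 and by voom, 1 with the block). Of 36 p53 target genes 2 rose (5.56%, against 1.86% of all genes) and 1 fell (2.78%, against 3.03%), with a median of 0.01. With the block 4 rose and 3 fell. Glycolysis genes differed with the letter: of 26, 23 were below 0 within letter a and 6 within letter b, and 1 was called higher (3.85%).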
